A study of Mus musculus with 6 samples.

Results

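The 41 genes described here carry glucose into the cell and through glycolysis, settle the fate of pyruvate, or sense and answer low oxygen. They were chosen by name, with earlier results of these data known. All probe sets annotated to exactly 1 of them were read from the table of values. That gave 84 of the 45101 probe sets of the array. Of the 41 genes, 38 had a probe set of their own, and 34 passed a filter on low values and entered the test over 10502 genes. Gpi1, Eno1 and Bnip3l had no probe set annotated to them alone and were not analysed here. Aldoc, Slc16a3 and Car9 lay at 2.12, the lowest log2 value in the table, on all arrays. Pdk2 stayed under the limit of 4 used here as background, at 3.77, 3.50 and 3.19 in NCSC and 3.19 on all MSC arrays.

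Gene expression was measured on Affymetrix mouse arrays in cultured stromal cells from adult bone marrow, with 3 arrays of neural crest stem cells (NCSC) and 3 of mesenchymal stem cells (MSC). The NCSC and the MSC alike came from female wnt1/CRE-R26R-lacZ mice of C57BL/6 x SV129 background, aged 10 weeks. In such animals Cre, driven by Wnt1 sequences, switches on a lacZ reporter in the offspring of the neural crest, a cell population that forms at the border of the embryo's neural plate. Cells of both groups had no treatment and grew in Mesencult medium through at least 5 passages before clones were picked, and if a group was 1 clone, its cell type and its clone cannot be told apart. The replicates are called biological, but nothing says that they came from separate animals or clones, so p-values measure no more than the spread among these arrays, part of which may be technical. The oxygen level and the glucose content of the cultures are not given in the sources used here.

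The crest markers differed in the direction of the labels. All 7 tested crest markers (Sox10, Foxd3, Ngfr, Erbb3, Tfap2a, Pax3 and Nes) were higher in NCSC, where their list summed to between 14.56 and 14.87 on the log2 scale, against 8.57 to 8.98 in MSC, and Ednrb was at the lowest value on all arrays. Of the mesenchymal markers Pdgfrb, Eng, Nt5e and Cd44 were higher and Pdgfra, Vcam1 and Cd248 lower in NCSC, with list sums of 15.69 to 15.89 in NCSC and 15.42 to 15.61 in MSC, and Thy1 and Lepr were under the limit throughout. Macrophage and blood markers summed to 8.88 to 9.04 in NCSC, through Cd68 at 8.75 to 8.89, and to 5.67 to 6.28 in MSC, and the defining markers Ptprc, Itgam and Adgre1 were at or next to the lowest value on all arrays. Csf1r was close to the limit in both groups, at no more than 4.82 in NCSC and 4.11 in MSC, and Cd14 was at 2.16 to 2.19 in NCSC and 3.96 to 5.15 in MSC. The part of these markers in the results was not tested. All 5 endothelial and 4 epithelial markers stayed under the limit. In bulk samples such as these, fewer cells that carry a transcript and less of it per cell cannot be told apart. Of all probe sets, 45.2% to 45.5% lay above the limit on each array, and NCSC 3 and MSC 2 stood apart from the other arrays of their cell type. NCSC 3 had 4.98% and 4.63% of the tested genes more than 2-fold from NCSC 1 and NCSC 2, which differed that much from each other in 0.438%. For MSC 2, set against MSC 1 and MSC 3, those shares were 2.69% and 2.62%, with 0.409% between MSC 1 and MSC 3.

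As background, glycolysis splits glucose into pyruvate in a chain of cytosolic steps, several of which are served by isoenzymes that differ between tissues. Pyruvate is then either reduced to lactate and exported or taken into mitochondria, where the pyruvate dehydrogenase complex opens the way to the citric acid cycle and pyruvate dehydrogenase kinases close it. When oxygen is scarce, the prolyl hydroxylases that mark the alpha subunits of the hypoxia-inducible factors for decay slow down, and the factors then raise glucose transporters, glycolytic enzymes, the kinase Pdk1 and genes such as Vegfa and Bnip3. Bone marrow has regions of low oxygen, and glycolysis is known to support the stem cells that live there.

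In these cultures the 34 tested genes did not move as a block. At an adjusted p under 0.05 in limma's test, 9 were higher and 8 lower in NCSC, so 50.0% were called, where 64.1% of all tested genes were called (35.0% higher and 29.1% lower). Their median difference, NCSC minus MSC on the log2 scale, was -0.11, against 0.056 over all tested genes, and the median size of the difference was 0.40, against 0.55. A call with at least 2-fold difference was made for 7 genes (20.6%), against 29.0% of all genes: Slc2a3, Pfkfb4, Ldhb, Epas1 and Ndrg1 were higher, and Hk2 and Pdk4 lower. Pdk4 is in these counts with background values in NCSC, having passed the filter through MSC alone. The 95% confidence interval of the difference lay between -1 and 1 for 23 of the 34 genes (67.6%), against 55.4% of all. The groups did not overlap for 20 genes, 9 higher and 11 lower in NCSC, which is 58.8% where all tested genes gave 71.2%. The count of lower calls turned on single arrays. Without NCSC 3, 13 genes were lower and 9 higher, where 31.6% of all genes were lower and 36.8% higher. Without NCSC 3 and MSC 2 together 17 genes were lower and 9 higher, where 35.3% of all genes were lower and 38.7% higher. The 9 added lower calls were Pfkl, Pgk1, Pkm, Ldha, Slc16a1, Pdk1, Vegfa, P4ha1 and P4ha2, each with a difference between -0.68 and -0.19. With array weights 17 genes were called lower and 10 higher, with 36.4% and 40.7% of all genes.

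**Figure D1:**
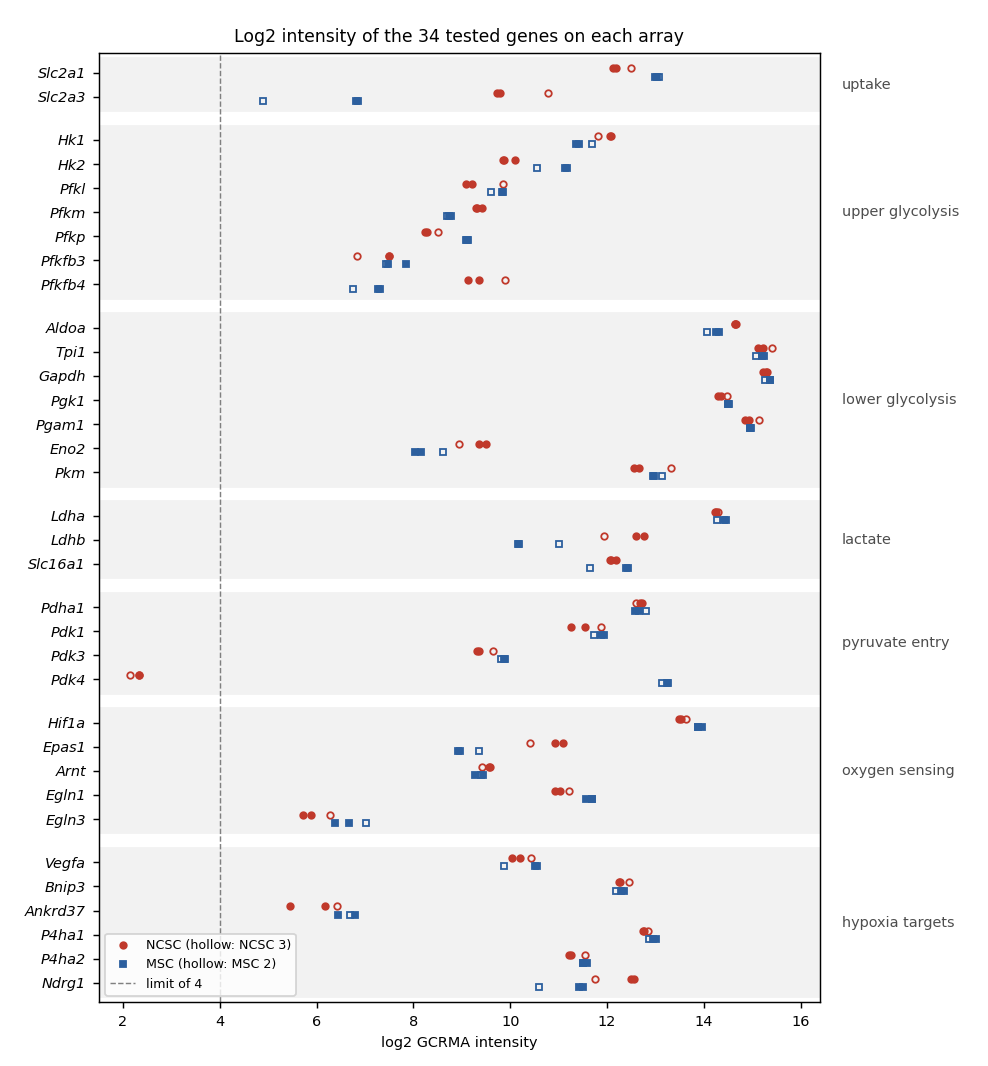
Log2 GCRMA intensity (horizontal axis) of the brightest probe set of each of the 34 tested genes on each array, ordered by role, with NCSC arrays as circles above MSC arrays as squares, NCSC 3 and MSC 2 hollow, and the limit of 4 dashed. Most enzymes of the chain sit at like levels in both cell types, while Slc2a3, Pfkfb4, Ldhb and Epas1 lie clearly to the right in NCSC and Pdk4 is at 2.14 to 2.32 in NCSC and 13.13 to 13.27 in MSC.

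The stretches upstream of 6 of these genes are shown because they set members with large differences between the cell types beside paralogues and classic hypoxia targets without a call. Each is the 250 bases before the annotated start, from RefSeq on GRCm38.p6, written 5′ to 3′ on the strand of the gene in lower case. Capitals mark the core of the hypoxia response element, ACGTG or GCGTG on either strand, which overlaps the E-box CACGTG, and an E-box therefore counts once for each strand.
Ldhb: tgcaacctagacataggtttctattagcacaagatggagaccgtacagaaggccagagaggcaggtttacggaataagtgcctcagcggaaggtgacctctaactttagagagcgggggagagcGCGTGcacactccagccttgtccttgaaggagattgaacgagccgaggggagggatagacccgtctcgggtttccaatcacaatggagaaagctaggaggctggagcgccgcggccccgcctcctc
Ldha: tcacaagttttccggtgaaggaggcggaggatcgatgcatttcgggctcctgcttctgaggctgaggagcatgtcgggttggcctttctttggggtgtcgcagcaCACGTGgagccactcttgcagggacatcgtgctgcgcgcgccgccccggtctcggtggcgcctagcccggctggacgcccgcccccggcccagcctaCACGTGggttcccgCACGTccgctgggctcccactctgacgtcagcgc
Pfkfb4: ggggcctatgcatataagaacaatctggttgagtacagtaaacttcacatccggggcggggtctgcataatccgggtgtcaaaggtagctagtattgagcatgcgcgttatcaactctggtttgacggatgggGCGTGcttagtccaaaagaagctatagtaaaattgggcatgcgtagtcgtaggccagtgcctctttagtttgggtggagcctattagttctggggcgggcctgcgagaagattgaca
Hk2: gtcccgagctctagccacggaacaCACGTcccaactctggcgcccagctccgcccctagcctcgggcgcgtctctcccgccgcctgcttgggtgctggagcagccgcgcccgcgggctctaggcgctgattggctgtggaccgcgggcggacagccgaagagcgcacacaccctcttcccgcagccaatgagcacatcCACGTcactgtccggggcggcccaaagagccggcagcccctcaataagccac
Pdk4: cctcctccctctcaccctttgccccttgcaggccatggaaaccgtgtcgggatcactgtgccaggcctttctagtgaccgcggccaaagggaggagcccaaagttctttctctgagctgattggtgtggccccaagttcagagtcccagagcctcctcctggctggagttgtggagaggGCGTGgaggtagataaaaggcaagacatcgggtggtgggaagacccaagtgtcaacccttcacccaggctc
Bnip3: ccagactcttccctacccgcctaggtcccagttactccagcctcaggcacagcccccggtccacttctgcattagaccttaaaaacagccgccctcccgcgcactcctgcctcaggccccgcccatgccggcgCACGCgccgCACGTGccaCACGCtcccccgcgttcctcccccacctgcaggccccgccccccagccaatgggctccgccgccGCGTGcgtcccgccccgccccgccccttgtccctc
The windows are chr6:142507958-142508207 (minus strand) for Ldhb, chr7:46845554-46845803 (plus) for Ldha, chr9:108991652-108991901 (plus) for Pfkfb4, chr6:82774455-82774704 (minus) for Hk2, chr6:5496279-5496528 (minus) for Pdk4 and chr7:138909507-138909756 (minus) for Bnip3. Ldha had 2 windows, of which the one with more matches is shown.

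Ldha and Bnip3, not called between the cell types, each held 5 core matches, E-boxes among them. Ldhb, higher in NCSC, held 1, which began 126 bases before its start, and Pfkfb4 held 1 at 117 bases. Hk2, lower in NCSC, held 2, at 226 and 52 bases, and Pdk4 held 1 at 71 bases. A match of these letters was common in this set, with 42 of 52 windows (80.8%), against 38.6% of 32851 windows over all genes. By gene, 34 of the 37 listed genes with a window had a match in at least 1, a count for which no share over all genes was computed. The list includes genes named as hypoxia targets, so it was not drawn without regard to this motif. An E-box was found in 6.02% of all windows. The windows were not matched for base composition, and a match of letters is not a binding site. Slc2a3, Epas1, Ndrg1 and Bnip3l had no window in the RefSeq table.

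The 2 glucose transporters changed in opposite directions. Slc2a3, the high-affinity transporter known from neurons, had log2 intensities of 9.78, 9.73 and 10.77 in NCSC, against 6.85, 4.90 and 6.80 in MSC. All NCSC arrays lay above all MSC arrays, NCSC 3 being the highest and MSC 2 the lowest. The difference was 3.91 ± 0.59 (SE, n = 3 each; limma adjusted p = 0.00162), or 15.0-fold, and 3.27 without MSC 2. Slc2a1, the widespread basal transporter, had 12.19, 12.13 and 12.50 in NCSC and 12.98, 13.07 and 13.04 in MSC. It was lower in NCSC by a small margin on every array, with a difference of -0.76 ± 0.12 (adjusted p = 0.00183). The other kept probe set of Slc2a3 and both others of Slc2a1 were called in the same directions, at 3.59 for Slc2a3 and within -0.91 to -0.74 for Slc2a1. By their suffix, both kept probe sets of Slc2a3 may also match other transcripts, and its other 2 probe sets lay at 2.12 to 2.15 on all arrays.

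Of 7 tested genes at the steps that trap glucose and commit it to glycolysis, 3 were higher, 2 lower and 2 not called. Over all tested genes 35.0% were higher and 29.1% lower. Hk2, the inducible hexokinase of muscle and growing cells, had 10.10, 9.87 and 9.85 in NCSC and 11.14, 10.55 and 11.17 in MSC. Every NCSC array was below every MSC array, and the difference was -1.01 ± 0.19 (limma adjusted p = 0.00386). Hk1, the hexokinase found in most tissues, had 12.08, 12.06 and 11.82 in NCSC and 11.42, 11.69 and 11.37 in MSC. Again the groups did not overlap, but in the other direction, with a difference of 0.49 ± 0.12 (adjusted p = 0.0138). That call was just lost without NCSC 1, MSC 1 or MSC 3 (adjusted p = 0.05075, 0.05184 and 0.05255), the highest values among 16 alternatives, which ran from 0.0002635. Gpi1, the isomerase between hexokinase and phosphofructokinase, was not analysed here.

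Phosphofructokinase, the main point of control of the pathway, had 1 gene higher, 1 lower and 1 not called. The muscle form Pfkm had 9.42, 9.30 and 9.31 in NCSC against 8.77, 8.70 and 8.73 in MSC. It was higher in NCSC by 0.61 ± 0.076 (adjusted p = 0.000733). The platelet form Pfkp had 8.29, 8.25 and 8.51 in NCSC against 9.12, 9.11 and 9.08 in MSC, a difference of -0.76 ± 0.095 (adjusted p = 0.000718). In both genes the gap between the groups was wider than the spread within them. The liver form Pfkl overlapped between the groups and was not called (-0.37 ± 0.21, adjusted p = 0.167). Its values were 9.09, 9.21 and 9.85 in NCSC, the last on NCSC 3, against 9.84, 9.61 and 9.83 in MSC. Without NCSC 3 the difference of Pfkl was -0.61 and called lower (adjusted p = 0.004735, range over the alternatives 0.001489 to 0.4136).

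Of the bifunctional enzymes that make and break the activator of phosphofructokinase, Pfkfb4 was called higher, Pfkfb3 was not called, and Pfkfb2 is given with the other pathway genes. Pfkfb4, a hypoxia-inducible member of this family, had 9.12, 9.35 and 9.88 in NCSC against 7.26, 6.75 and 7.31 in MSC. The NCSC arrays were all higher, by 2.34 ± 0.24 (limma adjusted p = 0.000316), or 5.08-fold. Pfkfb3, the member with the strongest kinase activity and also hypoxia-inducible, had 7.50, 7.49 and 6.83 in NCSC against 7.85, 7.43 and 7.48 in MSC. Its groups overlapped, the difference was -0.31 ± 0.22 (adjusted p = 0.253), and it was not called in any of the 16 alternatives.

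In the chain from aldolase to pyruvate kinase most differences were small. Of 7 tested genes, Aldoa and Eno2 were higher in NCSC and 5 were not called, where 64.1% of all tested genes were called. Triosephosphate isomerase (Tpi1) averaged 15.25 ± 0.15 in NCSC and 15.18 ± 0.079 in MSC (SD, n = 3 each), and differed by 0.076 (95% confidence interval -0.18 to 0.33). Gapdh, the dehydrogenase of the pathway, averaged 15.26 ± 0.045 in NCSC and 15.33 ± 0.053 in MSC, and differed by -0.065 (interval -0.25 to 0.12). Gapdh was read from Affymetrix's own control probe sets, the ones annotated to it alone. Phosphoglycerate mutase (Pgam1) differed by 0.014, with an interval of -0.23 to 0.26.

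Phosphoglycerate kinase (Pgk1) had 14.30, 14.35 and 14.48 in NCSC against 14.52, 14.50 and 14.50 in MSC. The groups were adjacent but did not overlap, and Pgk1 was not called (-0.13 ± 0.081, adjusted p = 0.189). Pkm, the pyruvate kinase of most tissues, had 12.67, 12.55 and 13.33 in NCSC against 12.95, 13.13 and 12.98 in MSC. NCSC 3 was the highest of all 6 arrays and NCSC 1 and NCSC 2 the lowest, so that Pkm was not called (-0.17 ± 0.21, adjusted p = 0.506), and was called lower without NCSC 3 (-0.41, adjusted p = 0.01144, range 0.01108 to 0.9409). Aldoa, the aldolase of muscle and most other tissues, had 14.64, 14.66 and 14.65 in NCSC against 14.26, 14.07 and 14.31 in MSC, a difference of 0.44 ± 0.091 (adjusted p = 0.00616). Eno2, the enolase known from neurons, had 9.49, 9.36 and 8.95 in NCSC against 8.16, 8.61 and 8.03 in MSC. It was higher by 1.00 ± 0.20 (adjusted p = 0.00583), with NCSC 3 and MSC 2 as the arrays closest to the other cell type. Eno1, the enolase of most tissues, was not analysed here, and Aldoc, the aldolase of brain, was at the lowest value on all arrays.

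**Figure D2:**
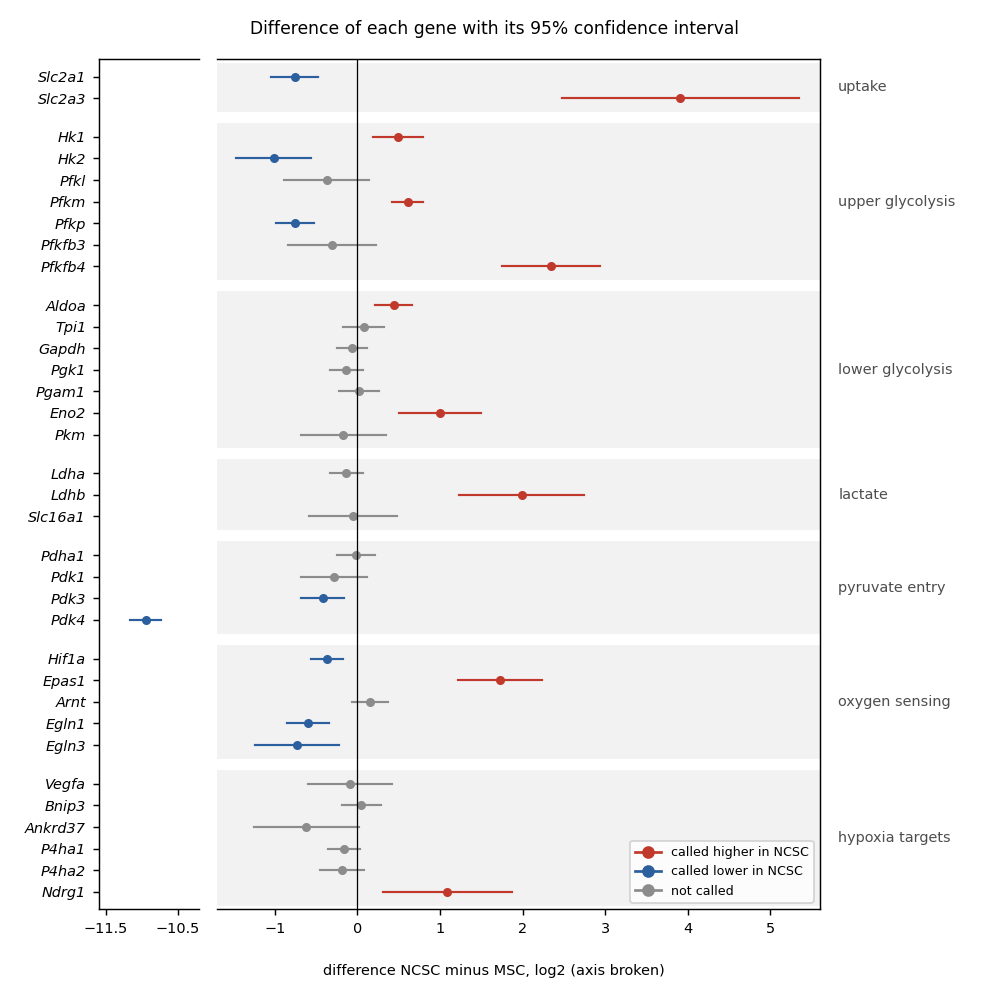
Difference NCSC minus MSC on the log2 scale (horizontal axis, with a break) with its 95% confidence interval for each of the 34 tested genes, by role. The 9 genes called higher are red, the 8 called lower blue and the other 17 grey. Slc2a3 reaches 3.91 on the right, Pdk4 is drawn at -10.95 on the left against background values in NCSC (-9.21 with values under 4 set to 4), and most others lie between -1 and 1.

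Of the 3 tested genes of lactate handling 1 was called, where 64.1% of all tested genes were called. Ldhb, the heart-type lactate dehydrogenase subunit that favours the conversion of lactate to pyruvate, had 12.60, 12.75 and 11.94 in NCSC against 10.18, 11.00 and 10.15 in MSC. All NCSC arrays were higher, with NCSC 3 the lowest of them and MSC 2 the highest of its group. The difference was 1.99 ± 0.31 (limma adjusted p = 0.00186), or 3.97-fold, and its 4 kept probe sets gave 1.95 to 2.20. Ldha, the muscle-type subunit that favours lactate, had 14.25, 14.23 and 14.29 in NCSC against 14.46, 14.27 and 14.42 in MSC. Its groups overlapped through MSC 2, and it was not called (-0.13 ± 0.083, adjusted p = 0.209). The carrier Slc16a1, which moves lactate and pyruvate across the cell membrane, had 12.18, 12.07 and 12.09 in NCSC against 12.40, 11.66 and 12.43 in MSC. MSC 2 lay below all other arrays. Slc16a1 was not called (-0.051 ± 0.22, adjusted p = 0.849), and was called lower without MSC 2 (-0.30, adjusted p = 0.02171, range 0.01914 to 1.0). Slc16a3, the lactate exporter typical of glycolytic cells, was at the lowest value on all arrays.

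At the entry of pyruvate into mitochondria Pdk4 stood out. Pdk4, the kinase that shuts pyruvate dehydrogenase in fasting and when fat is burned, was under the limit in NCSC, at 2.32, 2.32 and 2.14, and among the bright genes in MSC, at 13.23, 13.13 and 13.27. The NCSC values are background, so the difference is a lower bound: Pdk4 was at least 592-fold lower in NCSC. This result rests on 1 probe set, the only one of Pdk4. Pdk4 passed the filter through its MSC arrays alone, and its p-value would take the spread in NCSC from background, so none is given. Pdk3, another of these kinases, had 9.36, 9.32 and 9.63 in NCSC against 9.87, 9.82 and 9.89 in MSC. It was lower in NCSC by a small margin (-0.42 ± 0.11, limma adjusted p = 0.0138). This call was just lost without NCSC 1 or MSC 3 (adjusted p = 0.05052 and 0.05061, range 0.0003172 to 0.05061). Pdk2 was under the limit in both cell types.

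Pdk1, the kinase known as a hypoxia target, and Pdha1, the catalytic alpha subunit of pyruvate dehydrogenase, gave different answers with different probe sets. The brightest probe set of Pdk1 had 11.54, 11.26 and 11.87 in NCSC against 11.93, 11.72 and 11.88 in MSC and was not called (-0.28 ± 0.17, adjusted p = 0.178). Without NCSC 3 it was called lower (-0.44, adjusted p = 0.02371, range 0.007693 to 0.4493). Another Pdk1 probe set, not called, was -0.25 (called lower without NCSC 3 and MSC 2 together, at -0.53, adjusted p = 0.004344, and with array weights), while the remaining kept one had 9.16, 9.05 and 9.46 in NCSC against 8.19, 8.36 and 8.30 in MSC and was called higher, by 0.94 (adjusted p = 0.00122 over the probe sets). The direction of Pdk1 is therefore not settled by these arrays. For Pdha1 the brightest probe set differed by -0.018, with an interval of -0.24 to 0.21, and the other one was called lower, at 9.59, 9.47 and 9.22 in NCSC against 9.93, 10.09 and 10.13 in MSC (-0.63, adjusted p = 0.00567).

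Of the 5 oxygen sensing genes 4 were called, 1 higher and 3 lower in NCSC, where 64.1% of all tested genes were called. Epas1 and Hif1a encode the alpha subunits of hypoxia-inducible factors, which share many targets. Epas1, known from endothelium and from crest-derived tumours, had 11.09, 10.92 and 10.41 in NCSC against 8.97, 9.35 and 8.91 in MSC. It was higher on every NCSC array, by 1.73 ± 0.21 (limma adjusted p = 0.000621), or 3.32-fold. The other probe set of Epas1 lay at 2.13 on all arrays, so this result rests on 1 probe set. Hif1a had 13.52, 13.48 and 13.63 in NCSC against 13.96, 13.88 and 13.89 in MSC. It was lower on every NCSC array by a small margin, -0.37 ± 0.080 (adjusted p = 0.00745). Another probe set of Hif1a was called lower too (-0.51), and the dimmest kept one was not called (-0.27). Arnt, the beta subunit that both partners need, overlapped between the groups and was not called (0.15 ± 0.088, adjusted p = 0.179). The factors are controlled mostly at the level of the protein, which these arrays do not measure.

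Of the hydroxylases that mark those alpha subunits for decay, Egln1 and Egln3 were called lower in NCSC and Egln2 was not called (0.14). Egln1, the main oxygen sensor of most cells, had 10.93, 11.02 and 11.22 in NCSC against 11.69, 11.70 and 11.57 in MSC, a difference of -0.60 ± 0.10 (limma adjusted p = 0.00292). Egln3, whose own transcript is known to rise in hypoxia, had 5.73, 5.88 and 6.27 in NCSC against 6.39, 7.02 and 6.67 in MSC. The groups were separate but close, with NCSC 3 next to MSC 1, and the difference was -0.73 ± 0.21 (adjusted p = 0.0223). That call was lost without NCSC 1, NCSC 2, MSC 2 or MSC 3 (adjusted p = 0.07409, 0.07173, 0.0564 and 0.05933) and without the filter on low values (0.089, the highest of a range that starts at 0.001841). The other kept probe set of Egln3 had 3.06, 3.25 and 4.51 in NCSC against 6.71, 5.62 and 6.43 in MSC. It was at least 4.24-fold lower in NCSC. There only 1 array was above the limit and the mean is background, so no p-value is given.

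Of 6 further tested members known as targets of the hypoxia-inducible factors 1 was called, where 64.1% of all tested genes were called. Of 27 tested genes on a separate list of other hypoxia-responsive genes 21 were called. Ndrg1, a stress-responsive gene linked to differentiation, had 12.49, 12.55 and 11.74 in NCSC against 11.43, 10.60 and 11.50 in MSC. The groups did not overlap, NCSC 3 was the lowest of its group and MSC 2 the lowest of all, and the difference was 1.09 ± 0.32 (limma adjusted p = 0.0247). The call was lost without NCSC 1, NCSC 2 or MSC 2 (adjusted p = 0.08107, 0.08356 and 0.05383) and without the filter on low values (0.1038, where the alternatives started at 0.0003431). Vegfa, the angiogenic growth factor, had 10.20, 10.04 and 10.43 in NCSC against 10.55, 9.88 and 10.51 in MSC and was not called (-0.092 ± 0.21, adjusted p = 0.720). Bnip3, a receptor for the removal of mitochondria, averaged 12.32 ± 0.12 in NCSC and 12.27 ± 0.077 in MSC (SD, n = 3 each) and differed by 0.049, with an interval of -0.19 to 0.28.

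The collagen prolyl hydroxylase subunits P4ha1 and P4ha2, which ready collagen for folding, differed by -0.16 ± 0.078 and -0.19 ± 0.11 and were not called (limma adjusted p = 0.117 and 0.173). The brightest probe set of P4ha1 was lower on all NCSC arrays, while its other kept one differed by 0.017, with overlapping groups, and was not called. P4ha2 overlapped through NCSC 3 and was called lower without it (-0.29, adjusted p = 0.01587, range 0.007847 to 0.3984). Ankrd37, an ankyrin repeat gene induced by hypoxia, had 5.45, 6.18 and 6.43 in NCSC against 6.78, 6.69 and 6.44 in MSC. NCSC 3 nearly touched MSC 3, and Ankrd37 was not called (-0.62 ± 0.26, adjusted p = 0.0794) but was called lower without NCSC 3 (-0.82, adjusted p = 0.03027, range 0.01523 to 0.2288). Car9, a carbonic anhydrase used as a marker of hypoxic tumour tissue, was at the lowest value on all arrays of both cell types.

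Several genes were measured by more than 1 probe set, which share a target and are not replicates. Others, Hk2, Pfkfb4 and Pdk4 among them, had only 1. Of the 66 kept probe sets 20 were called higher, 14 lower and 32 not, where 60.1% of all 18647 kept probe sets were called (33.0% higher and 27.2% lower). Without NCSC 3 and MSC 2 together 26 were called lower and 22 higher, where 32.7% and 36.2% of all were. Of 18 genes with several kept probe sets, 13 had the same call in all of them, and in the other 5 (Aldoa, Pdha1, Pdk1, Hif1a and Ndrg1) some were called and some not. No gene had probe sets called in opposite directions. For Aldoa 4 of 5 probe sets were called higher, at 0.38 to 0.52, and the remaining one was 0.15. For Ndrg1 3 of 4 were called higher, at 1.09 to 1.22, and the one not called was 1.31. That one was called without NCSC 3 (1.61, adjusted p = 0.04837), without MSC 3 (1.66, adjusted p = 0.04305) and without NCSC 3 and MSC 2 together (1.09, adjusted p = 0.004113), in a range of 0.004113 to 0.2116. It was also called with the filter at log2 6 (adjusted p = 0.04903), with trended and robust eBayes (0.04217) and with array weights (0.01331). Of the others, 2 lost the call without NCSC 1 or NCSC 2 (adjusted p = 0.0634 to 0.068) and without the filter on low values (0.08857 and 0.09385). By their suffix (x, s or a), 38 of the 84 probe sets may match more than 1 transcript, which for the suffix a can be transcripts of the same gene. Apart from the suffix, glycolytic genes such as Gapdh have many pseudogenes, so the values of such genes may include these copies.

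**Figure D3:**
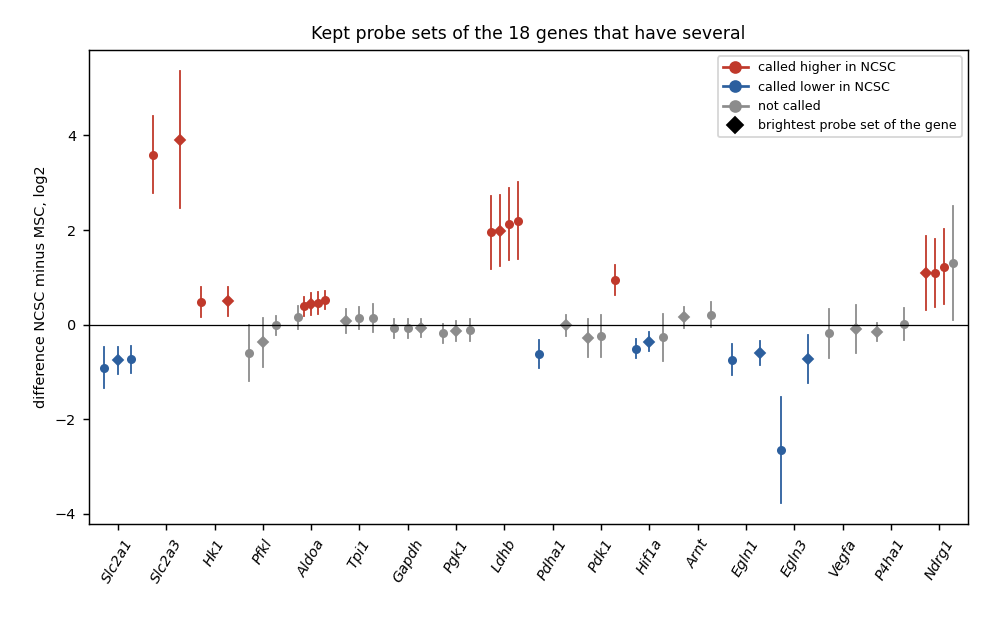
Difference NCSC minus MSC on the log2 scale (vertical axis) with its 95% confidence interval for every kept probe set of the 18 genes with more than 1, in red where called higher, in blue where called lower and in grey where not called, with diamonds for the brightest probe set of a gene. Pdk1 has a red probe set at 0.94 beside grey ones at -0.28 and -0.25, and those of Egln3 lie at -0.73 and, with NCSC values partly under the limit, -2.65 (the set that is at least 4.24-fold lower).

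The change of 1 paralogue relative to another was computed on each array as the difference of their log2 values. Levels of different probe sets cannot be compared, so only the change of this log ratio between the cell types is read. Of 16 planned pairs 11 had both genes tested, and the groups did not overlap in 8 of them. Among all tested genes, taken singly, the groups did not overlap for 71.2%, and the share for pairs of genes at large was not computed. With 20 ways to split the arrays, an exact permutation test (two-sided) gave those 8 pairs p = 0.1, the smallest it can give, and an adjusted p of 0.138, so no pair could pass 0.05. Among the 8 is Pdk4 to Pdk1, where Pdk4 passed the filter through MSC alone, so its separation and p-value are not read as a result. The log ratio of Slc2a3 to Slc2a1 was 4.67 higher in NCSC, at -2.41 to -1.73 in NCSC against -8.17 to -6.13 in MSC. Pfkfb4 to Pfkfb3 was 2.66 higher, Ldhb to Ldha 2.12 higher, Epas1 to Hif1a 2.10 higher and Pfkm to Pfkl 0.98 higher in NCSC. Hk2 to Hk1 was lower in NCSC (-1.51), as was Pfkp to Pfkl (-0.38), and Pdk4 to Pdk1 (-10.67) rests on background values of Pdk4 in NCSC and was -8.93 with values under 4 set to 4. For Pdk3 to Pdk1 (-0.14, exact p = 0.3), Egln3 to Egln1 (-0.13, exact p = 0.6) and P4ha2 to P4ha1 (-0.028, exact p = 0.9) the groups overlapped. The pairs were formed from families with earlier results known, and share the differences given above for each gene.

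**Figure D4:**
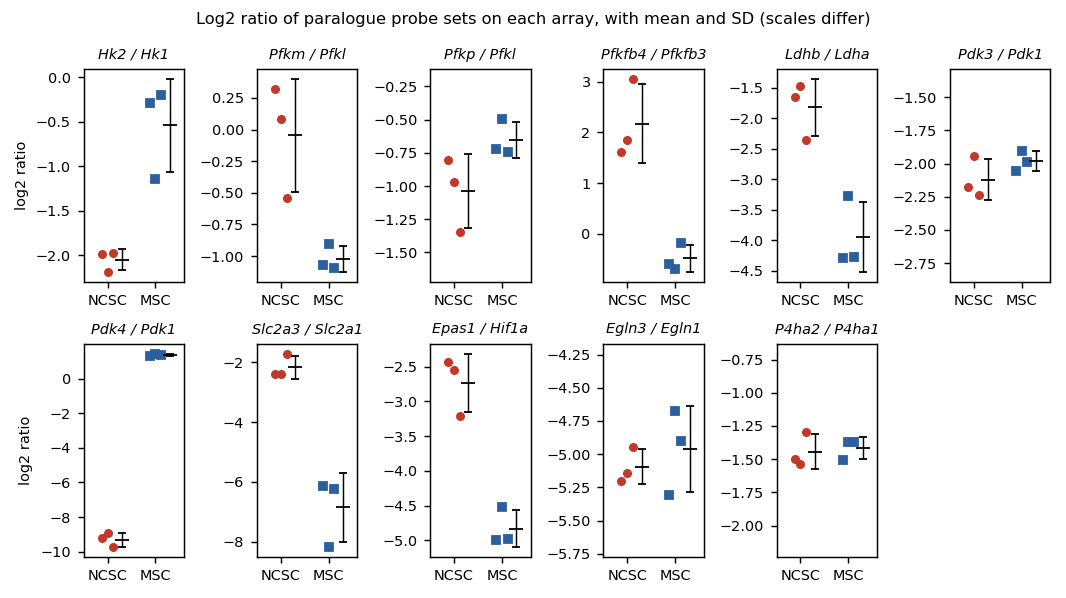
Log2 ratio of the probe sets of 11 pairs of paralogues (vertical axis, scale differing between panels) on each array, NCSC as circles on the left and MSC as squares on the right of each panel, with the mean and SD of 3 arrays beside them. The groups are apart in 8 panels, most widely for Pdk4 to Pdk1 (with background values of Pdk4 in NCSC) and Slc2a3 to Slc2a1, and overlap for Pdk3 to Pdk1, Egln3 to Egln1 and P4ha2 to P4ha1. For single genes the groups were apart in 71.2% of all tested.

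Other genes of the same pathways, from 6 lists, were read from the same fit. Of 73 tested genes 23 were higher, 25 lower and 25 not called, with a median difference of 0.011, against 35.0% higher and 29.1% lower and a median of 0.056 over all tested genes. The pentose phosphate branch, which leaves glycolysis to make reducing power and ribose, had all 7 of its tested genes called, 2 higher and 5 lower in NCSC, with a median of -0.79. The lactonase Pgls was lower (-1.04 ± 0.080), as were H6pd (-0.96 ± 0.11) and the transketolase Tkt (-0.79 ± 0.15). Rpia (-0.87 ± 0.28, limma adjusted p = 0.0333) was not called without MSC 1, MSC 2 or MSC 3 (adjusted p = 0.1001, 0.05476 and 0.08827) or without the filter on low values (0.1257, the highest of a range from 0.01255). Of 9 other glycolytic genes 2 were higher, 4 lower and 3 not called. Bpgm, the red cell enzyme of the side branch at phosphoglycerate, had 11.33, 11.25 and 11.14 in NCSC against 9.03, 9.25 and 9.22 in MSC, a difference of 2.07 ± 0.098 (adjusted p = 1.15e-05). Pfkfb2 was higher by 1.24 ± 0.16 and Tigar, which draws glucose into the pentose branch, was -0.73 ± 0.090. Slc2a10 was called lower (-0.87 ± 0.26), a call lost without NCSC 1, NCSC 2, MSC 1 or MSC 3 (adjusted p = 0.07717, 0.08744, 0.08669 and 0.08626) and without the filter on low values (0.1056, the highest of a range from 0.006559). Pgm1 (-0.069) and Eno3 (-0.17) were not called.

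Of 9 genes of gluconeogenesis and glycogen 1 was higher, 2 lower and 6 not called, where 35.0% of all tested genes were higher and 29.1% lower. In NCSC the glycogen-targeting subunit Ppp1r3c was lower by at least 11.1-fold and the mitochondrial enzyme Pck2, which makes phosphoenolpyruvate, was lower too (-1.64 ± 0.20), while the glycogen phosphorylase Pygb was higher (0.64 ± 0.077) and Gys1 (-0.069) and G6pc3 (0.15) were not called. Of 9 pyruvate carriers and dehydrogenase genes 4 were higher, 2 lower and 3 not called, where 64.1% of all tested genes were called. The monocarboxylate carrier Slc16a7 had 3.09, 2.41 and 3.25 in NCSC against 7.39, 7.26 and 7.11 in MSC and was lower by at least 9.52-fold. The phosphatase subunit Pdp1, which reactivates pyruvate dehydrogenase against the kinases, had 10.02, 10.20 and 9.84 in NCSC against 8.79, 8.76 and 8.82 in MSC, a difference of 1.23 ± 0.11 (limma adjusted p = 0.000165). Its regulatory partner Pdpr was lower (-0.76 ± 0.11) and the shared subunit Dld higher (0.74 ± 0.091). Bsg (0.035), the chaperone of lactate carriers, and Dlat (-0.33) were not called, and Dlat was called lower without MSC 2 (-0.43, adjusted p = 0.01213, range 0.01213 to 0.1603).

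Of 12 other oxygen sensing genes 3 were higher, 2 lower and 7 not called. Arnt2, a paralogue of Arnt known from neural tissue, had 10.05, 10.11 and 10.03 in NCSC against 6.30, 5.56 and 6.20 in MSC. The difference of 4.05 ± 0.20 (limma adjusted p = 1.41e-05), or 16.5-fold, stands beside Arnt, which was not called. The clock factor Arntl was also higher (1.02 ± 0.18), and Cited2, which competes with the factors for their coactivators, and the ubiquitin ligase Siah1a were lower (-1.10 ± 0.12 for each). Egln2 (0.14, called higher without the filter on low values, adjusted p = 0.01511) and Hif3a (0.036, at 4.48 to 4.59 on all arrays) were not called. Of 27 other genes known to respond to hypoxia 11 were higher, 10 lower and 6 not called, where 35.0% of all tested genes were higher and 29.1% lower. Adm, the vasodilator peptide adrenomedullin, had 2.27, 2.24 and 2.27 in NCSC against 11.30, 11.94 and 11.48 in MSC, and was at least 190-fold lower. The collagen cross-linking enzyme Lox (-5.07 ± 0.13) and the lipase inhibitor Angptl4 (-3.73 ± 0.33) were lower as well. Flt1, a receptor for Vegfa, was higher (2.61 ± 0.25), and Mif (0.085) and Anxa2 (0.066) were not called.

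Within each cell type the listed genes also differed between arrays, a pattern noticed after their values were seen. NCSC 3 was the highest of the 3 NCSC arrays for 21 of the 34 tested genes (61.8%), where it was the highest for 38.2% of all tested genes and for 13 of the 27 other hypoxia-responsive genes (48.1%). MSC 2 was the lowest of the MSC arrays for 21 genes (61.8%), against 46.8% of all. In the 6 lists of other pathway genes that share ran from 33.3% (gluconeogenesis and glycogen) to 66.7% (pyruvate carriers and dehydrogenase), with 48.1% of the 27 other hypoxia-responsive genes. NCSC 2 was the lowest of the NCSC arrays for 16 of the 34 genes (47.1%), against 26.9% of all. Slc2a3 was 1.01 higher on NCSC 3 than the mean of NCSC 1 and NCSC 2, Pkm 0.72 higher, Pfkl 0.70, Pfkfb4 0.65 and Ankrd37 0.61. Ndrg1 (-0.78), Ldhb (-0.74), Pfkfb3 (-0.67) and Epas1 (-0.59) were lower on NCSC 3. On MSC 2, Slc2a3 (-1.93), Ndrg1 (-0.86), Slc16a1 (-0.76), Vegfa (-0.65) and Hk2 (-0.60) were lower than the mean of MSC 1 and MSC 3, and Ldhb (0.83), Eno2 (0.51) and Egln3 (0.50) were higher. These are values of single arrays with no test. The log2 ratio of the 5′ to the 3′ control probe set of Gapdh, a sign of RNA quality, was 0.15, 0.13 and 0.062 in NCSC and 0.10, 0.11 and 0.099 in MSC, with NCSC 3 lowest, and that of actin was -0.39, -0.41 and -0.52 in NCSC and -0.49, -0.45 and -0.50 in MSC, again with NCSC 3 lowest. The part of these differences in the values of NCSC 3 was not tested.

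**Figure D5:**
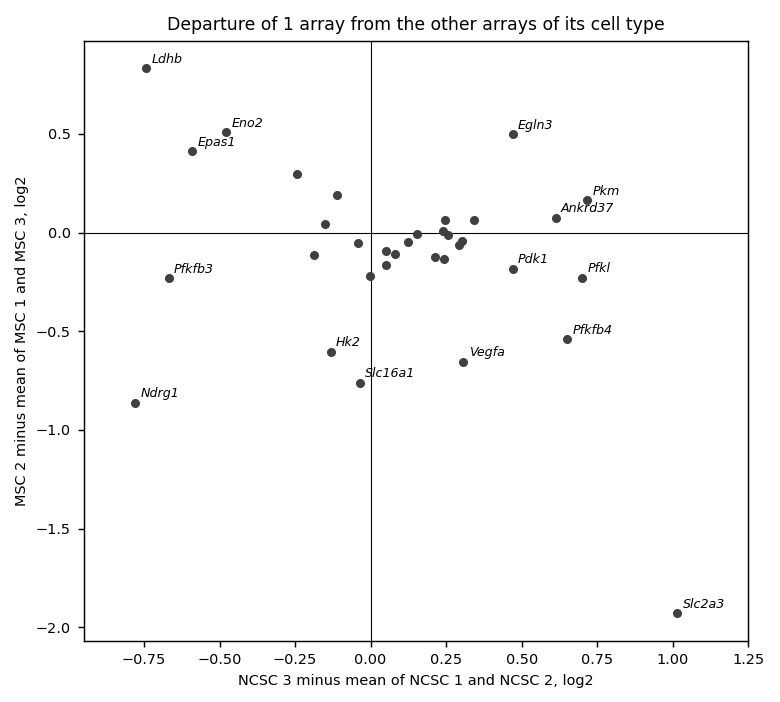
For each of the 34 tested genes, the log2 value on NCSC 3 minus the mean of NCSC 1 and NCSC 2 (horizontal axis) against that on MSC 2 minus the mean of MSC 1 and MSC 3 (vertical axis), with genes beyond 0.4 named. Slc2a3 stands apart at 1.01 and -1.93, and Ldhb, Eno2 and Epas1, all called higher in NCSC, are low on NCSC 3 and high on MSC 2.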

How the data were processed

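The intensities deposited by the authors were made with GCRMA, per the submitters' processing notes (version not given), and lie on a linear scale, as their range of 4.36 to 116597 shows. The plan had foreseen log2 values, so log2 was taken first, with no further normalization. The platform table named 1 gene for 34958 of the 45101 probe sets, 13 Affymetrix controls among them, several genes for 932 and none for 9160 besides controls, and 34754 matched a RefSeq gene. A probe set was kept with log2 above 4 on at least 3 of 6 arrays, and a gene was represented by its kept probe set with the highest mean. The difference, NCSC minus MSC, came from limma 3.58.1 (R 4.3.3), with lmFit, eBayes without trend, a two-sided test and no covariate, adjusted by the Benjamini-Hochberg method over all 10502 genes or 18647 probe sets, and called at an adjusted p under 0.05. Where the dimmer mean was at or under 4, a fold is a bound with lower values set to 4, written "at least". With 3 arrays a group, the number of arrays limits the precision. The fit was tested on simulated data. The members, lists, pairs and tests were chosen with earlier results of these data known. Every listed member is named, and of each other list up to 4 called genes with the largest and 2 not called ones with the narrowest interval. Alternatives covered filter, floor, pseudocount, quantile normalization, trend, array weights, replicate block, left-out arrays and the mean of probe sets.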

Additional observations from a re-analysis of the deposited data

How the results depend on the processing

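Of the 34 tested genes 15 kept direction and call in all 16 alternatives, and 19 changed in at least 1. The counts of calls stayed within 1.5 times, except those of lower calls: 17 genes and 25 probe sets with array weights, 17 and 26 without NCSC 3 and MSC 2 together, and 13 genes without NCSC 3, where all arrays gave 8 genes and 14 probe sets. Leaving out 1 array at a time gave 7 to 9 genes called higher and 6 to 13 lower, 15 to 22 probe sets higher and 12 to 21 lower, 20 to 25 other pathway genes higher and 22 to 26 lower, and 8 to 9 pairs without overlap. Members that changed sign were not called in that setting. Over the left-out arrays Pdha1 ran from -0.07051 to 0.04521 (positive without MSC 2, and 0.01871 without NCSC 3), Tpi1 from -0.005845 (without NCSC 3) to 0.1379, Pgam1 from -0.07212 (without NCSC 3) to 0.0796, Bnip3 from -0.02263 (without NCSC 3) to 0.08975, Slc16a1 from -0.3048 to 0.08479 (positive without MSC 1 and MSC 3) and Vegfa from -0.3098 to 0.02728 (likewise). Among other pathway genes Pgm1 ran from -0.1734 to 0.01739 (without NCSC 2), Eno3 from -0.2791 to 0.03086 (without NCSC 3) and Bsg from -0.02563 (without MSC 1) to 0.08729. With array weights, and without NCSC 3 and MSC 2 together, Pdha1 was 0.07071 and 0.08189, Tpi1 -0.02289 and -0.05024, Pgam1 -0.05344 and -0.07606, and Bnip3 -0.04751 and -0.06332. Pdha1 was 0.001349 with quantile normalization, and Pdk1 0.1371 with the mean of its probe sets. The cause was not tested. Replicate numbers shared by the groups did not pair the arrays (correlations of same-numbered deviations -0.0985, 0.0621 and 0.0729). With the replicate block 9 genes were called higher and 8 lower, with no member changed, 19 and 15 probe sets, and 23 and 26 other pathway genes, Dlat being called lower. Over all tested genes the block gave 3376 higher and 2881 lower.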
